A study of Mus musculus with 6 samples.

Results

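The genes examined here encode the constitutive proteasome, the protein-degrading machine that every cell carries. Rows of the expression table were taken as members when the gene symbol was Psma to Psmg followed by a number and the mean normalized count over the 6 cultures was at least 10. The interferon-inducible Psmb8, Psmb9, Psmb10, Psme1 and Psme2 were left out by name. Of 55357 genes listed, 48 carried a matching symbol, 5 of these were left out by name, and 2 lay under the minimum mean. The remaining 41 members were all among the 15280 genes tested. By function they comprised 14 genes of the 20S core, 17 of the 19S regulatory particle, 7 assembly chaperones, and 3 genes for activators or an inhibitor. The 2 genes under the minimum were Psma8 (mean 5.51 normalized counts), a subunit known from the testis, and Psmb11 (mean 1.23), known from the thymic cortex.

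Most soluble proteins marked with ubiquitin are destroyed by the proteasome. Its 20S core is a barrel of stacked rings in which the outer rings, built from the alpha subunits encoded by Psma genes, gate the entrance, and the inner rings, built from the beta subunits encoded by Psmb genes, carry the proteolytic sites. The 19S regulatory particle caps the barrel: its lid removes ubiquitin, and its base, with ubiquitin receptors and a ring of ATPases, binds the protein, unfolds it and feeds it into the core. Each subunit is needed in a fixed number of copies, and cells short of proteasome activity are known to raise many subunit genes together through the transcription factor encoded by Nfe2l1. In astrocytes, as in other cells, interferon replaces the catalytic subunits with inducible ones and so turns the constitutive core into the immunoproteasome.

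RNA-seq was performed on primary cortical astrocytes of C57BL/6 mouse embryos at embryonic day 18. In the KE group, 3 cultures were transfected with a plasmid in which the CMV promoter drives FLAG-tagged BRAF KE, the K499E form of BRAF that is linked to RASopathies. In the NT group, 3 cultures, labelled naive, received no plasmid. RNA was taken 48 hours after transfection, under a protocol that the labels give for both groups. The CMV promoter is not restricted to astrocytes, and the plasmid adds to the cells' own Braf. No empty-plasmid or BRAF WT culture is among the samples analysed here, so an effect of BRAF KE and an effect of transfection cannot be told apart. Each sample is called a culture here, but the labels do not say whether replicates were prepared separately, so the p-values measure only the spread between these samples, which may be technical.

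The values are gene counts divided by a size factor per culture, here called normalized counts. Their totals per culture lay between 30472429 and 30895529. Sequencing depth, estimated from the step between low values, was about 24500000 reads in KE replicate 2 and between 29500000 and 34100000 in the other 5 cultures. Braf itself lay between 34933 and 40978 normalized counts in KE and between 811 and 946 in NT. Of the 10 astrocyte markers tested, 6 were higher and 2 lower in KE, and their summed level lay between 150288 and 152751 in KE against 109516 to 114729 in NT. All 12 microglia and macrophage markers were lower in KE, with a median log2FC of -3.35 and a summed level of 3611 to 5512 in KE against 39049 to 46689 in NT, and none of them was at 0. All 7 oligodendrocyte lineage markers tested were lower too, with a median log2FC of -0.55 and a summed level of 27105 to 31875 in KE against 35920 to 36217 in NT, and so were both endothelial markers tested. Of 6 neuron markers tested 1 was higher and 1 lower, and of 6 fibroblast and mural markers 2 were higher and 2 lower. In bulk RNA, fewer cells of a type and less RNA per cell cannot be told apart. All of these cells carry proteasomes, and the part of these differences in the results on proteasome genes was not tested.

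Proteasome genes in mammals are known for antioxidant response elements, the sites that transcription factors of the Nfe2l family bind, and the promoters were therefore read for the core of that element. RefSeq windows of 300 bases (GRCm38.p6), from 250 bases before to 50 after a gene start, were given for 34 of the 41 members. The core, written TGACNNNGC and searched on both strands, was held by 6 of the 34 windows (17.6%), against 14.5% of the 11414 windows of tested genes and 12.5% of all 27025 windows. The windows that held it belonged to Psmb5 and Psmb6, which encode catalytic subunits, to Psmc6 of the base, to Psmd12 of the lid, to the base chaperone Psmd9 and to the activator Psme4. The stretches around it are shown for all 6, so that the matches can be read beside the values of these genes. Each is read 5′ to 3′ on the strand of its gene and placed by exact match in GRCm39, with the core in capitals in whichever orientation it was found. Positions of the core count from the RefSeq start.
Psmb5 (chr14:54855482-54855519, minus strand, core from -47): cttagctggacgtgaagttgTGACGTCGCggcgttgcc
Psmb6 (chr11:70416154-70416182, plus strand, core from -9): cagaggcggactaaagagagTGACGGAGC
Psmc6 (chr14:45567034-45567082, plus strand, core from -227): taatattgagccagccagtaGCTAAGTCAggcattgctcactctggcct
Psmd9 (chr5:123366202-123366250, plus strand, core from -31): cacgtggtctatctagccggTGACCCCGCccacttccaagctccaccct
Psmd12 (chr11:107370104-107370135, plus strand, core from -247): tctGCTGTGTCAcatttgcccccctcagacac
Psme4 (chr11:30721748-30721776, plus strand, core from -7): aacctcccggcgctgcggctGCAGCGTCA

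In Psmb5, Psmb6 and Psmd9 the core read forward and lay within 47 bases of the start. In Psmc6 and Psmd12 it read in reverse and lay farther upstream, and in Psme4 it read in reverse and started closest to the start of all 6. Other short motifs were counted in the same windows. GGAAG, the core bound by ETS factors, was in 30 of 34 member windows (88.2% against 75.1% of tested genes), including 14 of 14 regulatory particle windows and 9 of 11 core windows. CCAAT was in 12 (35.3% against 39.0%), TATAAA in 3 (8.82% against 7.16%) and CACGTG in 3 (8.82% against 9.86%). A match of letters is a description of the window and not evidence of a bound site.

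Transcripts of the constitutive proteasome differed little between BRAF KE–transfected and nontransfected astrocytes. The question was whether the core and the regulatory particle moved with the broad change in these cultures, in which 51.3% of all tested genes were called. A gene was called when its adjusted p (limma on the log2 of normalized count plus 1, Benjamini-Hochberg over all tested genes) was under 0.05. Among the 41 members, 7 were higher in KE, 3 were lower and 31 were not called, so 24.4% were called. Over all tested genes 25.3% were called higher and 26.0% lower. The members called higher were Psma3, Psma6, Psmb3, Psmc5, Psmd4, Psmd11 and Psmf1. The members called lower were Psmg1, Psme3 and Psme4. The 3 KE values lay wholly above or below the 3 NT values in 17 members (41.5%), against 59.9% of tested genes. In 11 of the 17, KE lay above NT, and in 6 it lay below. The split between higher and lower depended on the scaling: it was 7 to 3 as deposited, 6 to 3 when the 75th percentiles were made equal, 8 to 1 when the medians were made equal, and 4 to 5 after quantile normalization. Over all tested genes, 25.1% were higher and 26.0% lower with equal 75th percentiles, and 27.7% and 23.7% with equal medians. After quantile normalization they were 27.6% higher and 24.7% lower. These scalings moved the median log2FC over all tested genes by at most 0.03.

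**Figure D1:**
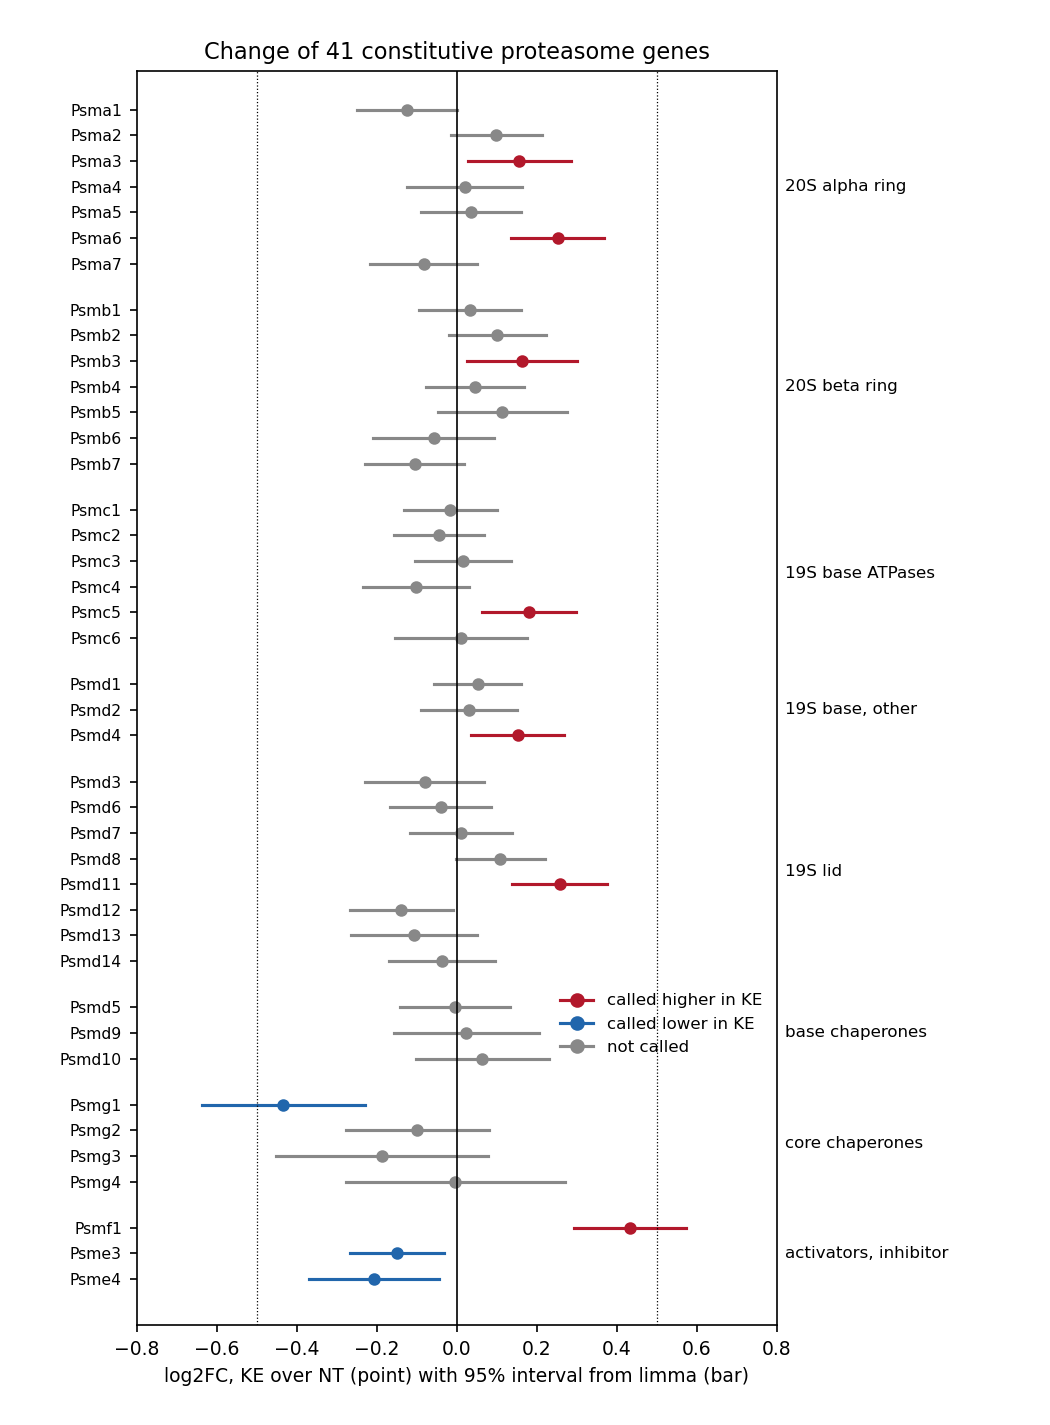
Log2FC of KE over NT for each of the 41 members (point) with its 95% interval from limma (bar), in role groups from the alpha ring at the top to activators and the inhibitor at the bottom; dotted lines mark -0.5 and 0.5. Most points lie near 0, and the ends of the range are Psmg1 at -0.43 and Psmf1 at 0.43.

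The members' differences were small in size as well as rarely called. Their log2FC ran from -0.43 to 0.43 with a median of 0.01, beside a median of 0.00 over all tested genes. The median size without its sign was 0.098 for the members and 0.298 for all tested genes. A size under 0.25 was found in 37 of 41 members (90.2%) and in 43.5% of tested genes, and all 41 members lay under 0.5, against 69.8% of tested genes. For 39 of 41 members (95.1%) the whole 95% interval of the log2FC lay within 0.5 of 0 on either side, against 44.7% of tested genes. Mean normalized counts of the members, not corrected for length, ran from 385 (Psmg4) to 12940 (Psmd2), with a median of 4093 against 731 over all tested genes, and they had a median standard error of the log2FC of 0.058 against 0.093. Among the 6432 tested genes with a mean of at least 1000, a bound chosen after the values were seen, 58.1% were called, while 25.7% of the 35 members above that bound were. The contrast in size was smaller against these genes than against all tested genes. Their median size was 0.223, against 0.099 for the 35 members. A size under 0.25 was found in 54.3% of them and 91.4% of the members, and one under 0.5 in 81.7% and 100%. The whole 95% interval lay within 0.5 of 0 in 67.5% of them and 97.1% of the members.

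**Figure D2:**
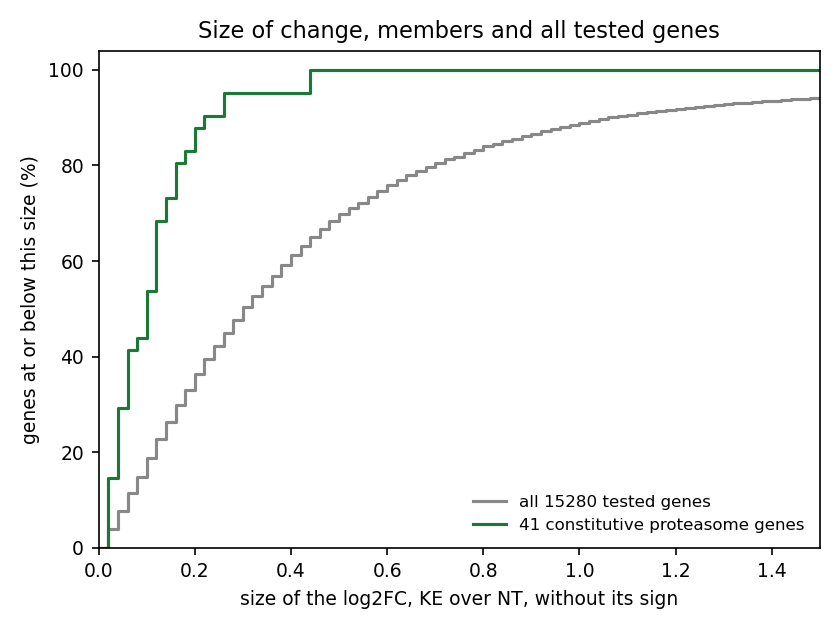
Share of genes (%) whose log2FC of KE over NT has at most a given size, sign ignored, for the 41 members (green) and all 15280 tested genes (grey). The green line stands at 90.2% by 0.25 and reaches 100% before 0.5, where the grey line stands at 69.8%.

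The alpha ring, which gates the core, had 2 genes called higher, Psma6 and Psma3, and 5 not called, with a median log2FC of 0.04. Psma6 (ENSMUSG00000021024), the alpha subunit with the largest difference, lies on the plus strand of chromosome 12 from 55431007 to 55467094 (GRCm39, as are all gene positions here). Its normalized counts were 7089, 6749 and 6593 in KE replicates 1, 2 and 3 and 5780, 5670 and 5695 in NT replicates 1, 2 and 3. Every KE culture lay above every NT culture, and the log2FC was 0.25 (SE 0.052, limma adjusted p = 0.00208). Psma3, whose product sits beside that of Psma6 in the ring, had 6237, 5609 and 5607 in KE against 5112, 5213 and 5315 in NT, a log2FC of 0.16 (SE 0.059, limma adjusted p = 0.0446). Its groups did not overlap, but KE replicate 1 stood above the other KE cultures, and the call was lost without KE replicate 1 (limma adjusted p = 0.179), NT replicate 1 (0.115), NT replicate 2 (0.0914) or NT replicate 3 (0.0695). The same held with no filter on low genes (limma adjusted p = 0.06995), after quantile normalization (0.0647) and without the variance trend (0.105). Psma1 had the lowest log2FC of the ring, -0.12 (SE 0.057, limma adjusted p = 0.0880). Its values of 3456, 3429 and 3245 in KE all lay under the 3841, 3626 and 3580 of NT, and it was called only after quantile normalization (adjusted p = 0.0444). Psma2 did not overlap either, with KE above NT and a log2FC of 0.10. Psma4, Psma5 and Psma7 overlapped between the groups, with log2FC values of 0.02, 0.04 and -0.08.

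The beta ring had 1 gene called higher, Psmb3, and 6 not called, with a median log2FC of 0.05. Its members divide into 3 that carry the catalytic threonine, Psmb5, Psmb6 and Psmb7, and 4 that do not, Psmb1, Psmb2, Psmb3 and Psmb4. Psmb5 (ENSMUSG00000022193; chromosome 14 from 54850776 to 54855481, minus strand) encodes the site that cuts after hydrophobic residues and had 3312, 3387 and 2842 normalized counts in KE against 2826, 2928 and 3040 in NT. KE replicate 3 fell within the NT range and the other KE cultures above it, with a log2FC of 0.11 (95% interval -0.05 to 0.27, limma adjusted p = 0.213). Without KE replicate 3 the gene was called, with a log2FC of 0.19 (limma adjusted p = 0.0284).

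Psmb6 (ENSMUSG00000018286; chromosome 11 from 70416183 to 70418684, plus strand), the subunit that cuts after acidic residues, had 4250, 4523 and 3782 in KE against 4443, 4293 and 4297 in NT. Its KE values lay on both sides of the NT values, and the log2FC was -0.06 (95% interval -0.21 to 0.09, limma adjusted p = 0.505). Psmb7 (ENSMUSG00000026750; chromosome 2 from 38478044 to 38534099, minus strand), which cuts after basic residues, had 4427, 4302 and 4010 in KE against 4617, 4498 and 4574 in NT. All KE cultures lay under all NT cultures, but the log2FC of -0.10 was not called (95% interval -0.23 to 0.02, limma adjusted p = 0.142). The intervals of the catalytic genes therefore leave room for a change of up to 0.27 on the log2 scale. Psmb5 and Psmb6, whose promoter stretches with the TGACNNNGC core are given above, had log2FC values of opposite sign, and neither was called.

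Of the beta subunits without a catalytic threonine, Psmb3 had 3632, 3805 and 3321 in KE against 3164, 3268 and 3158 in NT, a log2FC of 0.16 (SE 0.062, limma adjusted p = 0.0470). Its groups did not overlap, but the call stood just inside the threshold. It was lost without KE replicate 1 (limma adjusted p = 0.121), KE replicate 2 (0.145), NT replicate 1 (0.108), NT replicate 2 (0.0666) or NT replicate 3 (0.114). It was also lost with no filter on low genes (limma adjusted p = 0.0691), with equal 75th percentiles (0.0526), after quantile normalization (0.128) and without the variance trend (0.106). Psmb2 did not overlap, with KE above NT and a log2FC of 0.10. Psmb1 and Psmb4 overlapped, with log2FC values of 0.03 and 0.05.

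The constitutive catalytic genes were set beside the inducible subunits that can take their place, Psmb8 for Psmb5, Psmb9 for Psmb6 and Psmb10 for Psmb7. All 5 genes left out by name were higher in KE, with no overlap: the log2FC was 1.65 for Psmb8, 1.79 for Psmb9, 1.41 for Psmb10, and 1.05 and 0.73 for Psme1 and Psme2, which encode the interferon-inducible activator. Per kilobase of canonical transcript, Psmb8 made up 63.1% ± 0.719 of the sum of Psmb5 and Psmb8 in KE and 37.2% ± 3.74 in NT (SD, n = 3). For Psmb9 with Psmb6 the share was 23.8% ± 1.07 in KE and 7.96% ± 0.453 in NT. For Psmb10 with Psmb7 it was 35.6% ± 1.46 in KE and 16.3% ± 1.93 in NT. The groups did not overlap in any of the 3 shares, and the denominators of all 3 contain a constitutive gene that was not called. These are shares of transcripts, and they depend on the transcript length used: with coding length they were 62.1%, 30.7% and 38.8% in KE and 36.2%, 10.9% and 18.3% in NT.

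**Figure D3:**
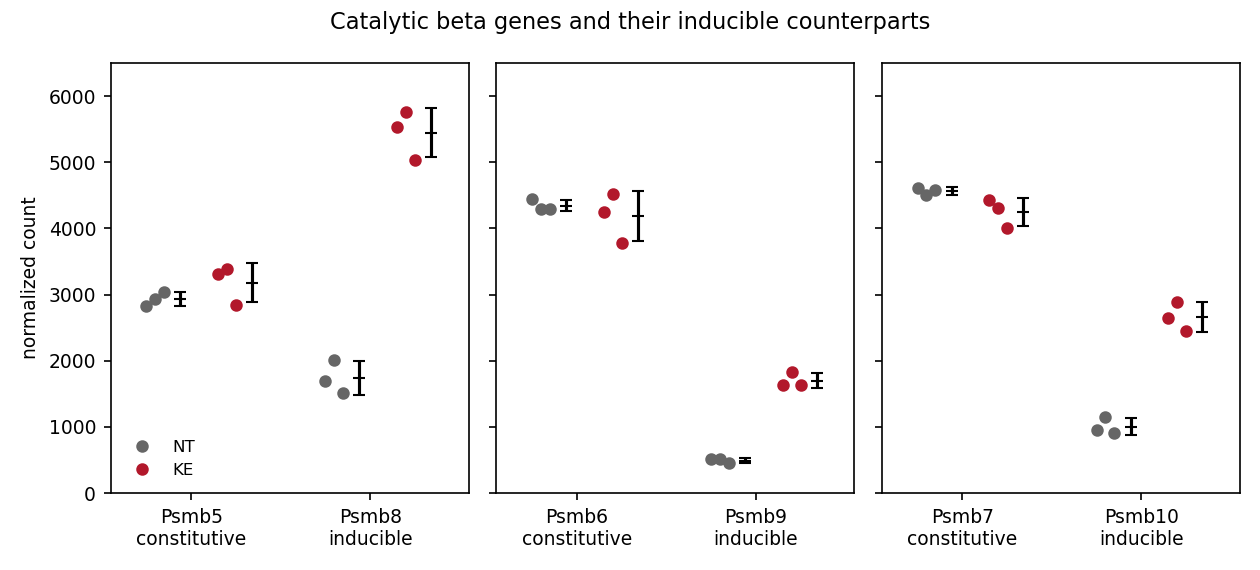
Normalized counts of each catalytic beta gene and its inducible counterpart in the 3 NT (grey) and 3 KE (red) cultures; each point is a culture and each bar the mean with SD. Constitutive genes sit at like heights in both groups, whereas Psmb8 averages 1742 in NT and 5443 in KE.

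By role, the base ATPases of the regulatory particle had 1 gene called higher, Psmc5, and 5 not called, with a median log2FC of -0.00. Psmc5 lies on chromosome 11 from 106146951 to 106156291 (plus strand). It had 4861, 4818 and 4784 normalized counts in KE against 4081, 4380 and 4305 in NT. The KE cultures lay close together and all above NT, with a log2FC of 0.18 (SE 0.053, limma adjusted p = 0.0148). At the threshold of 0.05 the call was lost without NT replicate 1, the lowest of the 6 cultures, where the log2FC was 0.15 (limma adjusted p = 0.0560), and it was kept without any other culture. The other ATPases work in the same hexameric ring, and their log2FC values ran from -0.10 for Psmc4 to 0.02 for Psmc3. Psmc2 was the only one of them without overlap, at 3686, 3703 and 3581 in KE against 3784, 3745 and 3779 in NT, a log2FC of -0.04 (limma adjusted p = 0.499). Psmc6, which carries the TGACNNNGC core, had a log2FC of 0.01.

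The remaining base subunits are the scaffold proteins of Psmd1 and Psmd2 and the ubiquitin receptor of Psmd4. Psmd4 had 4218, 4243 and 4063 in KE against 3661, 3823 and 3789 in NT, without overlap, and a log2FC of 0.15 (SE 0.053, limma adjusted p = 0.0322). Its call was lost without KE replicate 1 (limma adjusted p = 0.0892), KE replicate 2 (0.0708), NT replicate 1 (0.0944), NT replicate 2 (0.0516) or NT replicate 3 (0.0688), and also with no filter on low genes (0.0582), after quantile normalization (0.0551) and without the variance trend (0.0672). Psmd1 had 8583, 8690 and 8640 in KE against 8318, 8197 and 8465 in NT, also without overlap, but the log2FC of 0.05 was not called (limma adjusted p = 0.393). Psmd2 overlapped between the groups with a log2FC of 0.03.

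The lid, which removes ubiquitin from bound substrates, had 1 of 8 genes called higher and 7 not called, with a median log2FC of -0.04. Psmd11 (ENSMUSG00000017428; chromosome 11 from 80319400 to 80364074, plus strand) encodes the lid subunit that reaches down to the alpha ring and clamps the cap to the core. Its normalized counts were 3837, 4020 and 3991 in KE against 3328, 3207 and 3378 in NT. Every KE culture lay well above NT, and the log2FC of 0.26 was the largest of the 31 core and regulatory particle genes (SE 0.054, limma adjusted p = 0.00213).

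None of the other lid genes was called. Psmd12, its neighbour in the lid and the member with the lowest log2FC of the regulatory particle, had 3051, 2747 and 2924 in KE against 3257, 3161 and 3177 in NT. Its groups did not overlap and KE lay below, with a log2FC of -0.14 that missed the threshold (limma adjusted p = 0.0680). It was called with the replicate number as a block (limma adjusted p = 0.0479) and after quantile normalization (0.0367). Psmd8 did not overlap, with KE above NT and a log2FC of 0.11 (limma adjusted p = 0.0932), and was called when the culture medians were made equal (0.0444). Psmd13 had a log2FC of -0.11 and overlapped, since KE replicate 1 stood at 4168 and the other KE cultures at 3585 and 3482. Without KE replicate 1 it was called at -0.19 (limma adjusted p = 0.0353). Psmd14, the deubiquitinase, and Psmd3, Psmd6 and Psmd7 overlapped, with log2FC values between -0.08 and 0.01.

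Core and regulatory particle, set against each other, gave like counts and like medians. The 20S core had 3 genes higher, 0 lower and 11 not called, with a median log2FC of 0.04 and a range of -0.12 to 0.25. The 19S regulatory particle had 3 higher, 0 lower and 14 not called, with a median of 0.01 and a range of -0.14 to 0.26. The regulatory particle median was below 0 without KE replicate 1 (-0.02), KE replicate 3 (-0.02), NT replicate 2 (-0.01) or NT replicate 3 (-0.01), and after quantile normalization (-0.01). At an unadjusted p under 0.05 in limma, 11 of all 41 members passed, against 57.2% of all tested genes. They were the 10 called ones and Psmd12, which was lower in KE. The 95% intervals of the 14 core genes lay between -0.25 and 0.37 and those of the 17 regulatory particle genes between -0.27 and 0.38. The sign of the log2FC was positive in 10 of 14 core genes and in 9 of 17 regulatory particle genes, and 7 genes of each particle did not overlap between KE and NT.

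Summed over the particle in each culture, core genes came to 61751 ± 2898 normalized counts in KE and 59464 ± 491 in NT (SD, n = 3). Regulatory particle genes came to 86282 ± 1144 in KE and 85051 ± 540 in NT. The ratio of core to regulatory particle sums was 0.733, 0.726 and 0.688 in KE replicates 1, 2 and 3 and 0.711, 0.692 and 0.695 in NT replicates 1, 2 and 3. KE replicate 3 lay below all NT cultures and the other KE cultures above them. The ratio is given as a description, with no test. All 41 members together made up 0.530% ± 0.0121 of the total in KE and 0.524% ± 0.00131 in NT (SD, n = 3).

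**Figure D4:**
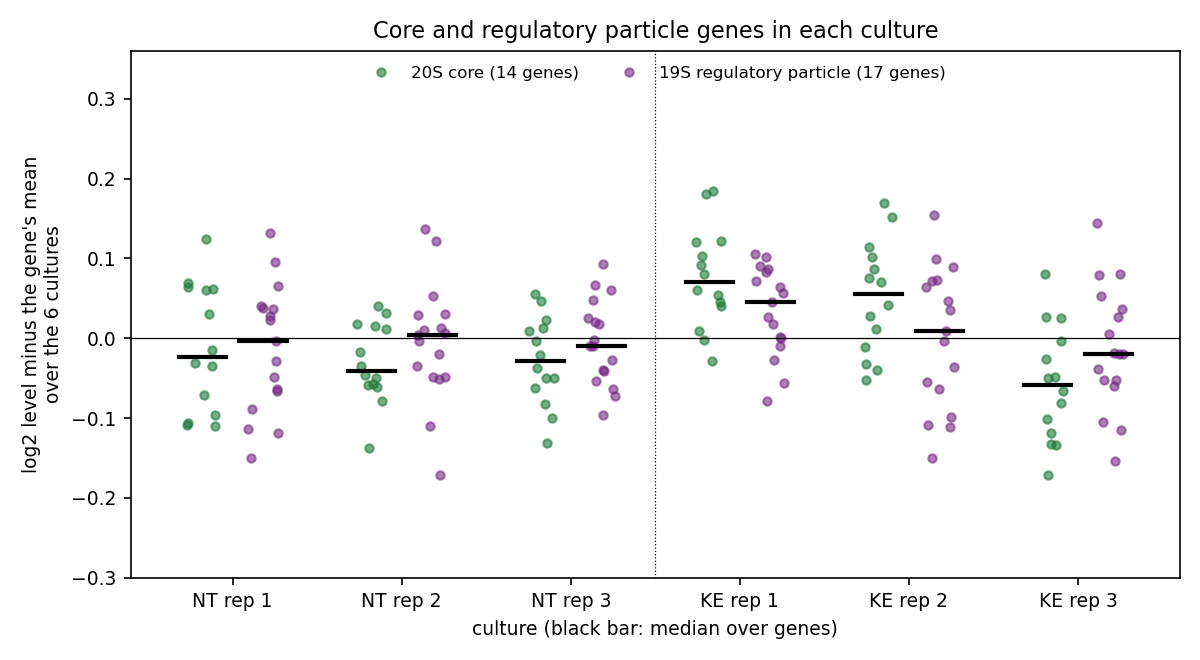
Log2 level of each 20S core gene (green) and 19S regulatory particle gene (purple) in each culture, minus the gene's mean over the 6 cultures; black bars are medians over genes. Core medians are 0.07 and 0.06 in KE replicates 1 and 2 and -0.06 in KE replicate 3, and those of NT lie between -0.04 and -0.02.

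Among KE cultures, replicate 3 was the lowest in 26 of 41 members and in none the highest of the 6. Without it, 8 members were called higher and 2 lower, beside 22.4% higher and 23.6% lower over all tested genes. The core median was then 0.08 against 0.04 with all cultures. In the same setting the regulatory particle median was -0.02. The coefficient of variation was larger in KE for 27 of 41 members, with medians of 4.65% in KE and 2.74% in NT. The spread was largest for the assembly gene Psmg4, at 16.3% in KE, and lowest in NT for Psmc2, at 0.560%.

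The assembly chaperones bring subunits together and leave before the proteasome is complete. Of these 7 genes, 1 was lower and 6 were not called. Psmg1 (ENSMUSG00000022913; chromosome 16 from 95778481 to 95792202, minus strand), one side of a dimer that starts the alpha ring, had the lowest log2FC of all members. Its normalized counts were 493, 420 and 428 in KE against 571, 625 and 613 in NT. Every KE culture lay below every NT culture, with a log2FC of -0.43 (SE 0.092, limma adjusted p = 0.00243). Psmg2, which encodes the partner of Psmg1 in that dimer, had 784, 742 and 763 in KE against 898, 771 and 787 in NT and was not called, with a log2FC of -0.10 (limma adjusted p = 0.335).

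Psmg3 and Psmg4, which encode a further alpha ring chaperone pair, had log2FC values of -0.19 and -0.00 and overlapped. Their 95% intervals were wide, from -0.45 to 0.08 and from -0.28 to 0.27. The base chaperones Psmd5, Psmd9 and Psmd10 join ATPases of the base into pairs. None of them was called and all overlapped, with log2FC values of -0.00, 0.02 and 0.06. Psmd10, which had the largest of these, stood at 843, 811 and 783 in KE against 810, 791 and 732 in NT (limma adjusted p = 0.503). Psmd9 again carries the TGACNNNGC core.

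All 3 genes for activators and the inhibitor were called, in both directions. Psmf1 (ENSMUSG00000032869; chromosome 2 from 151557732 to 151586119, minus strand), first known as an inhibitor of the isolated core, had the highest log2FC of all members. Its normalized counts were 1722, 1762 and 1731 in KE against 1352, 1294 and 1219 in NT. The KE cultures lay close together, all above NT, with a log2FC of 0.43 (SE 0.064, limma adjusted p = 0.000198).

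Psme3, a nuclear activator of the core that does not need ubiquitin, had 3899, 4029 and 3963 in KE against 4226, 4437 and 4521 in NT. Its groups did not overlap and KE lay below, with a log2FC of -0.15 (SE 0.053, limma adjusted p = 0.0375). The call was lost without KE replicate 1 (limma adjusted p = 0.107), KE replicate 3 (0.0678), NT replicate 2 (0.0930) or NT replicate 3 (0.131), when the culture medians were made equal (0.1004), with no filter on low genes (0.0664) and without the variance trend (0.0778). Psme4, a large nuclear activator linked to histone turnover, had 2810, 2839 and 3224 in KE against 3583, 3139 and 3512 in NT. KE replicate 3 lay above NT replicate 2, so Psme4 was the only called member whose groups overlapped, with a log2FC of -0.21 (SE 0.074, limma adjusted p = 0.0360). Its call was lost without KE replicate 1 (limma adjusted p = 0.126), KE replicate 2 (0.102), NT replicate 1 (0.124) or NT replicate 3 (0.101), when the culture medians were made equal (0.0790) and without the variance trend (0.102).

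Beyond the range of normalized counts given above, levels were set between genes per length, as normalized count per kilobase of coding sequence in NT. Core genes ran from 3701 (Psmb5) to 7744 (Psma6), 2.09-fold, with a median of 5674. Regulatory particle genes ran from 2338 (Psmd12) to 4976 (Psmd7), 2.13-fold, with a median of 3494. Assembly genes were lower, from 696 (Psmg1) to 1550 (Psmd5), with a median of 1122. The order within a particle depended on the length: per kilobase of canonical transcript, core genes ran from 795 (Psmb2) to 5485 (Psma6), 6.90-fold, and regulatory particle genes from 1151 (Psmd11) to 4244 (Psmd2), 3.69-fold, with medians of 2609 and 2481. By either length Psma6 had the highest level of the core, and assembly genes had a median below those of both particles.

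Genes of the wider proteasome system were read in the same fit, and some of them differed by more than any subunit of the core or regulatory particle. A list of 30 genes that build, regulate or feed the proteasome had 28 tested genes (Ddi1 was listed at 0, and Paaf1 was not analysed here), of which 7 were higher, 6 lower and 15 not called, with a median log2FC of -0.03. The 46.4% called lay near the 51.3% of all tested genes. Nfe2l1, whose product raises proteasome genes when activity is short, had 17848, 17979 and 17465 normalized counts in KE against 9814, 12240 and 11043 in NT, without overlap, and a log2FC of 0.69 (SE 0.075, limma adjusted p = 2.02e-05). Nfe2l2, a related factor of the antioxidant response, rose by 0.38 (limma adjusted p = 9.48e-05). Ddi2, the protease that releases the Nfe2l1 protein, fell by 0.46 on the log2 scale (limma adjusted p = 0.000180). Of the other genes of that axis, Ufd1 rose by 0.29, and Ngly1, Vcp, Nploc4 and Nfe2l3 were not called. Nfe2l3, at a low level, still had a log2FC of -0.77 (SE 0.31, limma adjusted p = 0.0602). Its values were 24.2, 12.3 and 17.9 normalized counts in KE against 32.2, 25.5 and 34.8 in NT, without overlap. None of the 7 members called higher held the TGACNNNGC core in its window, beside 14.5% of the windows of tested genes. The window of Psma6 lies 14553 bases from the start of its canonical transcript. Of the 6 members that held the core, 1 was called, Psme4, which was lower, beside 24.4% called of all 41 members and 51.3% of all tested genes. With so few genes, these counts are a description only.

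Of the ubiquitin genes, the polyubiquitin gene Ubb had 44498, 46217 and 40426 normalized counts in KE against 28613, 32259 and 28993 in NT, without overlap, and rose by 0.55 on the log2 scale (limma adjusted p = 9.16e-05). Rps27a, which encodes ubiquitin fused to a ribosomal protein, had 11183, 9755 and 9810 in KE against 11896, 12443 and 12017 in NT, also without overlap, and fell by 0.24 (limma adjusted p = 0.00793). Of the ubiquitin-activating enzymes, Uba1 was not called and Uba6 fell by 0.22. Among partners of the proteasome, Fbxo7, whose product binds that of Psmf1, rose by 0.59, and Uchl5, a deubiquitinase of the regulatory particle, fell by 0.62. The core chaperone Pomp and the subunit genes Adrm1 and Sem1, which the symbol rule does not take, were not called (limma adjusted p = 0.0785, 0.0562 and 0.0636).

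Among shuttle factors, which carry ubiquitinated proteins to the proteasome, Ubqln2 and Ubqln4 fell by 0.31 and 0.19, while Zfand5 and Zfand2a rose by 0.38 and 0.63. Rad23b and Ubqln1 were not called. No constitutive subunit of the core or regulatory particle had a log2FC as large in size as those of Nfe2l1, Fbxo7 or Uchl5.

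**Figure D5:**
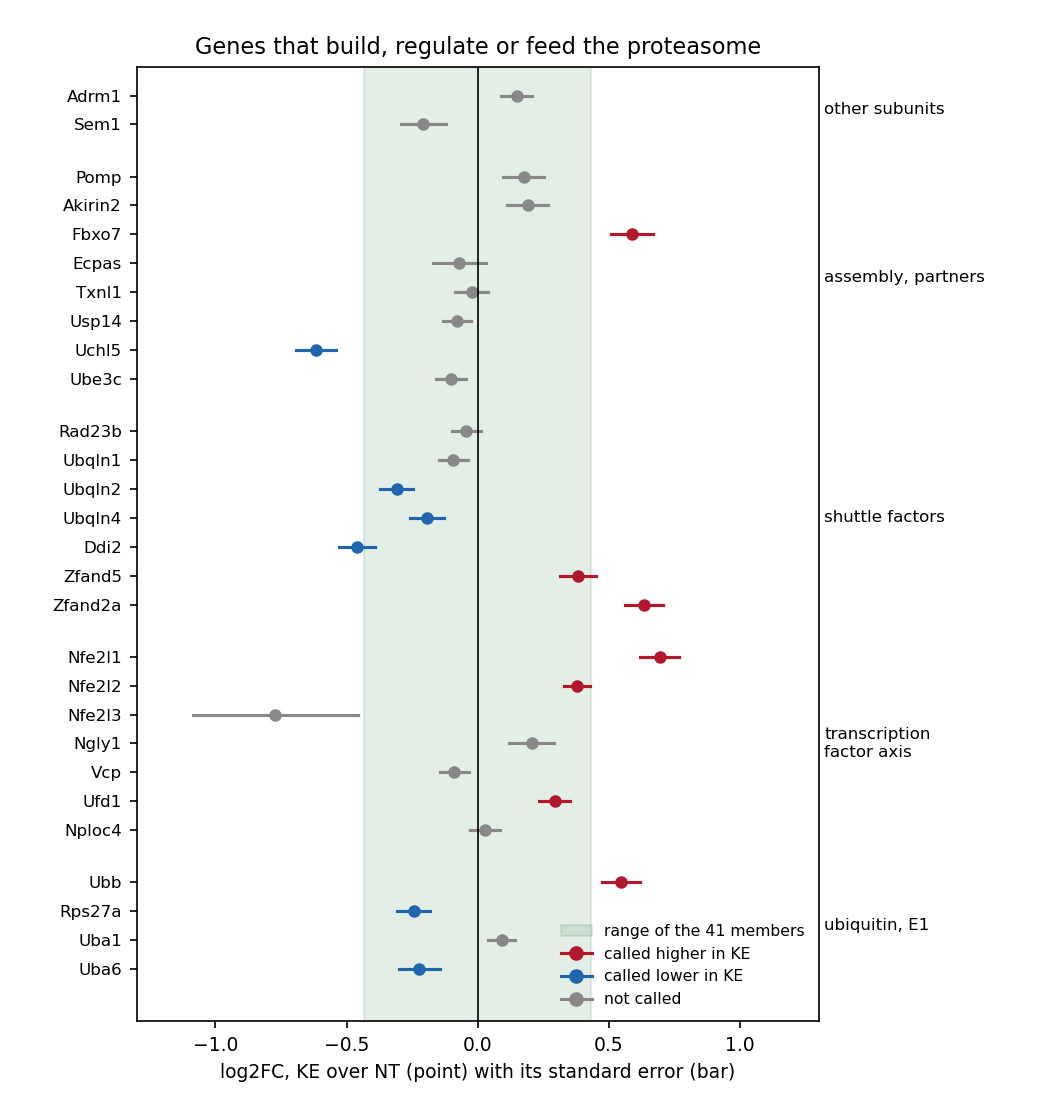
Log2FC of KE over NT (point) with its standard error (bar) for the 28 tested genes that build, regulate or feed the proteasome; the shaded band is the range of the 41 members, -0.43 to 0.43. Nfe2l1 at 0.69, Zfand2a at 0.63, Fbxo7 at 0.59 and Ubb at 0.55 lie to the right of the band. To its left lie Ddi2 at -0.46, Uchl5 at -0.62 and Nfe2l3 at -0.77, of which Nfe2l3 was not called.

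The members are spread over 16 chromosomes, so they do not form a gene cluster. Processed copies of proteasome genes can draw reads from their source genes. In this table Psma5-ps lay between 4.79 and 12.4 normalized counts, Psmb6-ps2 at no more than 0.952, and Psmb5-ps, Psmb6-ps and Psmb7-ps2 at 0, far below the genes they resemble. Psme2b, a copy of the left-out Psme2, lay between 143 and 273. Copies under other kinds of symbol were not looked up, and the reads that any copy draws were not tested.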

How the data were processed

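Total RNA of 6 cultures was sequenced with a stranded mRNA kit. Per the study's methods and the submitters' processing notes, reads were trimmed with Trim Galore, aligned with STAR and counted with Salmon, and the authors deposited gene counts normalized by DESeq2, a signal per gene and culture without a unit of depth. The methods name mouse hippocampus and human spheroids as the sources of RNA, and mention astrocytes only at a fold change cutoff for enrichment tests. Whether all steps they describe were used for these cultures is therefore not certain. The processing notes list GRCh38 whereas the methods name GRCm39 with Gencode vM28 for mouse, and the gene identifiers are of mouse. The methods mention an adjustment for batches without naming them, so none was modelled. Low values under 30 lay within 0.1 of a whole multiple of the step in at most 75.8% of cases, so reads were not recovered, no count test was run, and the values carry no counting interval.

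In R 4.3.3 with limma 3.58.1, the log2 of each deposited value plus a pseudocount of 1 was compared between KE and NT with a variance trend. Genes whose mean was under 10 were not tested. The tests were two-sided. For genes of low level, a log2FC so computed is smaller than the change itself. The fit was tested on simulated data. The members, roles, lists and motifs were chosen with earlier results of these data known. Full values were given for the 3 catalytic beta genes, the 3 largest rises and 3 largest falls among called members, the largest log2FC of each role group and members called against most of their group, and others were named after their values were seen. Core against regulatory particle is a description with no test.

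Gene positions and lengths came from Gencode vM39 on GRCm39, in which all 41 members were found. Of the 34 promoter windows, credited to RefSeq, 33 were found once in GRCm39 and 28 had a start within 100 bases of the canonical start. All columns of the table were used. Some genes of the wider list are not reported here. Alternatives were pseudocounts of 0.5 and 5, no filter or a minimum mean of 50, 3 other scalings, no variance trend, the replicate number as a block, an adjusted p under 0.01, and leaving out each culture in turn. Summaries used Python 3.11.15 with pandas 2.3.3 and figures matplotlib 3.10.9.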

Additional observations from a re-analysis of the deposited data

How the results depend on the processing

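Of 615 comparisons of a member with an alternative, 571 kept direction and side of the threshold, 38 lost a call and 6 gained one, and none reversed a call. In 29 the sign of an uncalled log2FC changed. Psma6, Psmd11, Psmg1 and Psmf1 kept their call in all 15 settings run for each member, the other 6 called members lost it in at least 1, and 26 members were called in none. The count of members higher in KE, 7 as reported, was 4 without a filter on low genes, 4 after quantile normalization, 4 without the variance trend and 3 at an adjusted p under 0.01. With a culture left out it was 3 to 8. Over all tested genes 25.3% were called higher as reported, 27.6% after quantile normalization and 23.2% without the variance trend. Without the filter it was 15.2% of 25499 genes, and with a culture left out 21.6% to 23.2%. The count lower in KE, 3 as reported, was 5 after quantile normalization, 1 with equal medians, 1 without the trend and 1 at an adjusted p under 0.01, and 1 to 2 with a culture left out. Over all tested genes 26.0% were called lower as reported, 24.7% after quantile normalization, 23.7% with equal medians and 23.5% without the trend. With a culture left out it was 22.8% to 24.4%. No share over all tested genes was computed at an adjusted p under 0.01, so the counts of members at that threshold stand without one. The lowest counts of members with a culture left out came without NT replicate 1 (3 higher) and without NT replicate 3 (1 lower). The regulatory particle median, 0.01 as reported, was 0.041 with equal medians and -0.023 to 0.0065 with a culture left out. The core median stayed between 0.03 and 0.08 with a culture left out. The cause of these shifts was not tested.

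Cultures with the same replicate number correlated by 0.063 on average in their deviations across genes, and those with different numbers by -0.032. The deviations were taken from each group's mean, which ties the second value to the first. These values therefore cannot decide whether the numbers pair the cultures, and the main fit did not pair them. With the replicate block 7 members were higher and 4 lower, Psmd12 being added, beside 26.0% higher and 26.7% lower over all tested genes. Precision was lowest for the assembly genes Psmg3 and Psmg4, which had the widest intervals.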
